A study of Mus musculus with 11 samples.

Results

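The genes described here encode 8 regulators of G protein signalling (Rgs2, Rgs4, Rgs7, Rgs8, Rgs9, Rgs10, Rgs14 and Rgs16) and 2 proteins that hold some of them in place (Rgs7bp and Gnb5). They were chosen by name as a family and matched by symbol to Ensembl identifiers, and these 10 genes stand among 52550 in the count table. Each of the 11 poly(A) RNA libraries came from 1 mouse aged 8 weeks, from punches of the accumbens shell in the ventral striatum. The series concerns the retinoic acid receptor gene Rarb and Huntington disease, and its design text speaks of reduced receptor signalling together with the disease mutation. That text names the R6/1 locus, a transgene with an expanded huntingtin exon, and the Rarb allele in the genotype of 1 animal that failed quality control. All libraries come from mice of a mixed CBA/C57BL6J/129svEmx background. The labels give each library an animal number and a library code and no genotype or sex, so the 11 libraries (m115, m49, m47, m73, m101, m44, m61, m89, m83, m74 and m57) form no groups. Each value is therefore given by library, and libraries of different genotypes may stand side by side in every range and relation.

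Receptors coupled to G proteins switch on an alpha subunit by loading it with GTP, and RGS proteins end the signal by speeding up GTP hydrolysis on that subunit. In the striatum this sets how long dopamine, opioid, muscarinic and adenosine receptors signal. Members of the R7 family (Rgs6, Rgs7, Rgs9 and Rgs11) are unstable unless bound to the atypical beta subunit made from Gnb5, and the palmitoylated anchor made from Rgs7bp brings that complex to the membrane. The small R4 proteins made from Rgs2, Rgs4, Rgs8 and Rgs16 are controlled largely through their transcript level and protein turnover. Of the R12 family, Rgs10 encodes a small protein also known from microglia, and Rgs14 encodes a scaffold with a GoLoco motif and Ras binding domains.

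The tissue label was checked against markers of its main cell type. All 17 markers of striatal projection neurons were detected, with a summed level from 3907 CPM (counts scaled to a common library size) in m74 to 9332 CPM in m44. Markers of other cells were also present. The 5 oligodendrocyte markers summed to 1729 (m47) to 4385 CPM (m83) and the 5 astrocyte markers to 1549 (m101) to 2677 CPM (m57). The 8 cortical neuron markers summed to 852 (m115) to 2552 CPM (m61), the 10 microglia markers to 366 (m47) to 614 CPM (m61), and the 6 subventricular zone markers to 98.8 (m57) to 348 CPM (m47). All of these markers passed the filter on low counts. Library totals ran from 24840981 counts in m61 to 48825783 in m49. Library m61 also had the highest share of counts in mitochondrial genes, 7.21% against 2.90 to 5.15% in the others. All 10 genes passed the filter on low counts, and the smallest count of any of them was 199, for Rgs16 in m61. In punched tissue, fewer cells of a type and less RNA per cell cannot be told apart.

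Per kilobase of exon, Rgs4 and Gnb5 had the highest levels and Rgs16 the lowest. The median over libraries was 70.5 CPM per kb for Rgs4, 66.5 for Gnb5, 44.2 for Rgs7bp, 24.8 for Rgs2 and 18.9 for Rgs9. It was 16.4 CPM per kb for Rgs14, 14.9 for Rgs10, 14.4 for Rgs8, 11.2 for Rgs7 and 4.70 for Rgs16. Neighbours in this order that kept it in all 11 libraries were Gnb5 above Rgs7bp, Rgs7bp above Rgs2, and Rgs7 above Rgs16. The other neighbours changed places between libraries. Rgs4 exceeded Gnb5 in 10 of 11 libraries and Rgs14 exceeded Rgs10 in 10. Rgs8 exceeded Rgs7 in 9, Rgs9 exceeded Rgs14 in 8, and Rgs2 exceeded Rgs9, like Rgs10 over Rgs8, in 7. These levels use the merged exon length of GENCODE M21, not the isoform expressed.

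**Figure D1:**
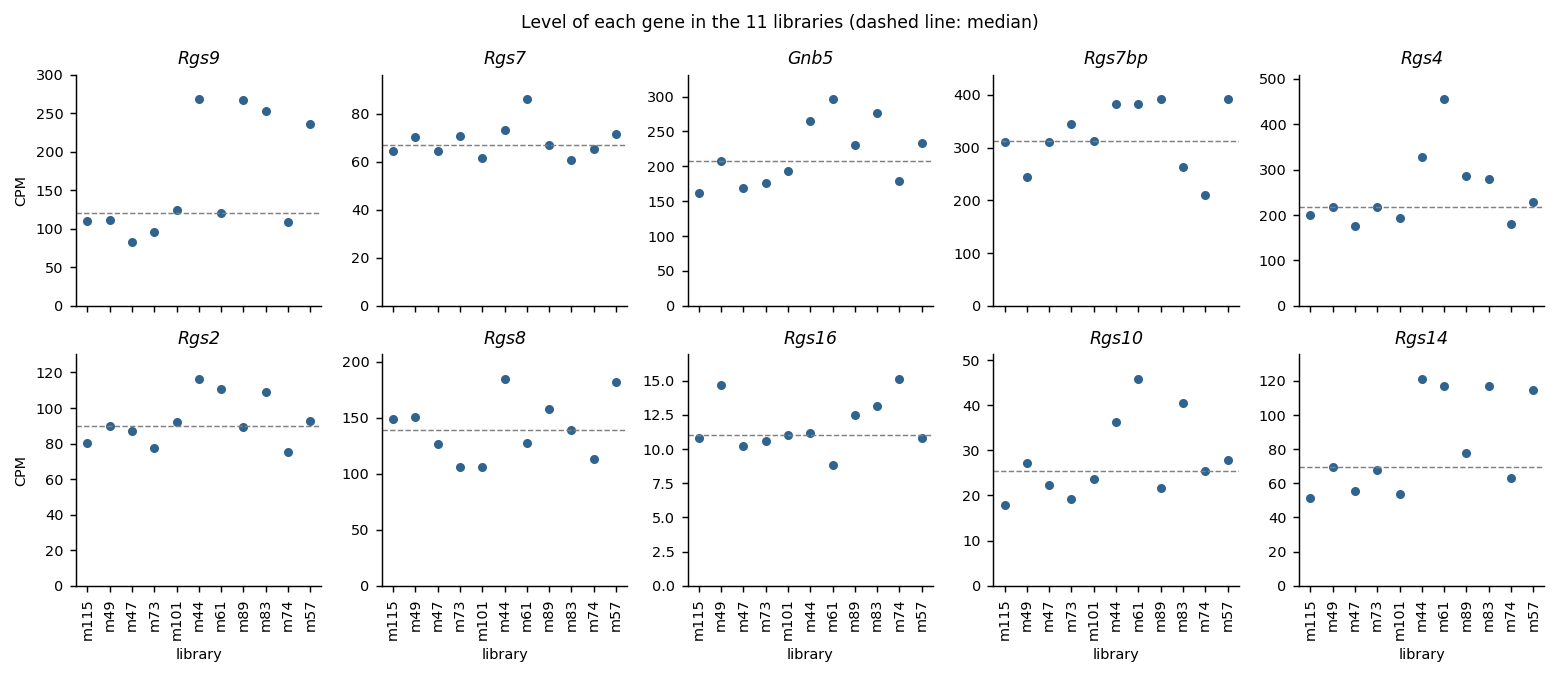
Level of each of the 10 genes (vertical axis, CPM) in each of the 11 libraries (points), with the median as a dashed line. Rgs9 lies between 236 and 268 CPM in m57, m83, m89 and m44 and between 82.8 and 124 CPM in the other 7 libraries, while Rgs7 stays between 60.9 and 86.0 CPM.

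Rgs9 encodes the R7 protein for which the striatum is best known, where its long splice form ends dopamine and opioid receptor signals. It lies at chr11:109225355-109298129 on the minus strand (mm10, positions from GENCODE M21). The Gnb5 gene is at chr9:75306288-75345876 on the plus strand and Rgs7bp at chr13:104945904-105054930 on the minus strand. The 250 bases before the start site of these 3 genes are shown because their proteins form 1 complex while their levels did not share 1 pattern in all libraries. They are RefSeq sequences of GRCm38.p6, 5′ to 3′ on the strand of the gene, with capitals on matches to any of 4 motifs searched on both strands. The motifs are the nuclear receptor half-site AGGTCA, the cAMP response element core TGACG, the GC box core GGGCGG and the TATA box TATAAA.
Rgs9 promoter (chr11:109298182-109298431, minus strand): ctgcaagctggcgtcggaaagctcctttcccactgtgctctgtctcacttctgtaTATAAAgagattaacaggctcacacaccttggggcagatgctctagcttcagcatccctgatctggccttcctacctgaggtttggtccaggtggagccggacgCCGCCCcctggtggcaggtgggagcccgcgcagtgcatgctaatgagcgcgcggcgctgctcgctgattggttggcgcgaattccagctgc
Gnb5 promoter (chr9:75306038-75306287, plus strand): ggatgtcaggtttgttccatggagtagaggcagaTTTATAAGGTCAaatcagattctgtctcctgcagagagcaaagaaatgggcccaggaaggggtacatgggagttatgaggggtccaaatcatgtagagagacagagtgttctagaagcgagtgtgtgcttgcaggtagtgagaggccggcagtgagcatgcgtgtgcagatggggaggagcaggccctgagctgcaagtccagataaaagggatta
Rgs7bp promoter (chr13:105054931-105055180, minus strand): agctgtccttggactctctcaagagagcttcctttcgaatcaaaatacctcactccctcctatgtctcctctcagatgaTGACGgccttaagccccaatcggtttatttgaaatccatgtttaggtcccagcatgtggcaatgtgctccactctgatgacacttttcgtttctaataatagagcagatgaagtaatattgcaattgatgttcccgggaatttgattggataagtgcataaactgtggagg
In the Rgs9 sequence a TATA match begins 195 bases and a GC box match 91 bases before the start site. In the Gnb5 sequence a half-site begins 210 bases before the start, directly after a TATA match on the opposite strand that begins 216 bases before it. The Rgs7bp sequence has 1 cAMP response element core, 171 bases before the start. RefSeq upstream sequences were matched for 9 of the 10 genes, 11 sequences in all since Rgs8 has several start sites, and none was listed for Rgs14. Of the 9 genes, 2 had the half-site (Rgs8 and Gnb5), 4 the cAMP response element core, 4 the GC box core and 3 the TATA box. Among 32851 mouse upstream sequences of the same length, 14.0% held the half-site, 17.8% the cAMP response element core, 32.7% the GC box core and 12.4% the TATA box. These shares are per sequence and the counts per gene, where Rgs8 could match in any of its several sequences. A match describes these letters and is not evidence that a factor binds there.

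Rgs9 varied most between libraries among the 10 genes. It was highest in m44 with 268 CPM, followed by m89 (267), m83 (252) and m57 (236 CPM). The remaining libraries had 124 CPM in m101, 121 in m61, 111 in m49, 110 in m115, 109 in m74, 96.0 in m73 and 82.8 in m47. No library lay between 124 and 236 CPM, and the highest level was 3.24 times the lowest. The spread of a gene is given as the biological coefficient of variation over all 11 libraries, in which differences of genotype, animal, dissection and library are mixed. For Rgs9 the spread was 0.452, and with each library left out in turn it stayed between 0.432 and 0.469. It lay at percentile 91.1 of all 15373 genes tested and at percentile 99.5 of genes of like mean level, whose median spread was 0.157.

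Gnb5, the obligate partner of R7 proteins, and Rgs7bp, their anchor, did not share the Rgs9 pattern in all libraries. Gnb5 had its lowest level, 162 CPM, in m115, its median, 207 CPM, in m49 and its highest, 296 CPM, in m61, with a spread of 0.210. Library m61 was thus the highest for Gnb5 and among the 7 low libraries for Rgs9. The libraries of high Rgs9 came next for Gnb5, with 276 CPM in m83, 265 in m44, 233 in m57 and 230 in m89. The other 6 libraries had 162 to 207 CPM, so that Gnb5 departed from the Rgs9 pattern in m61. Rgs7bp had its lowest level, 210 CPM, in m74, a median of 313 CPM and its highest, 392 CPM, in m57, with a spread of 0.204. Library m83 had a high Rgs9 level and only 263 CPM of Rgs7bp, the third lowest value. The other libraries of high Rgs9, m44, m89 and m57, had 382.7 to 391.5 CPM of Rgs7bp, beside 382.5 in m61. Per kilobase, the ratio of Rgs9 to Gnb5 ran from 0.199 in m61 to 0.566 in m89, and the ratio of Rgs7bp to Gnb5 from 0.418 in m83 to 0.866 in m73. Gnb5 has an antisense gene with overlapping exons, Gm19531, and whether the counting used strand is unstated in the sources used here, which leaves its counts uncertain.

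Rgs7, which encodes the R7 protein found across the brain, had the smallest spread of the 10 genes, 0.0960, at percentile 6.17 of all genes. Its level was lowest in m83 with 60.9 CPM, had a median of 67.1 CPM and was highest in m61 with 86.0 CPM. Without m61 its spread was 0.0568. The makeup of the R7 family differed between libraries. Per kilobase, Rgs9 made up 63.6 to 66.0% of the summed level of Rgs6, Rgs7, Rgs9 and Rgs11 in m83, m89, m57 and m44, and 42.0 to 49.2% in the other 7 libraries. The ratio of Rgs9 to Rgs7 per kilobase ranged from 1.21 in m47 to 3.91 in m83. Rgs6 contributed 4.07 to 8.62% and Rgs11 8.09 to 19.4%. The sum of the 4 genes relative to Gnb5 per kilobase was lowest in m61, at 0.410, and highest in m89, at 0.880.

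**Figure D2:**
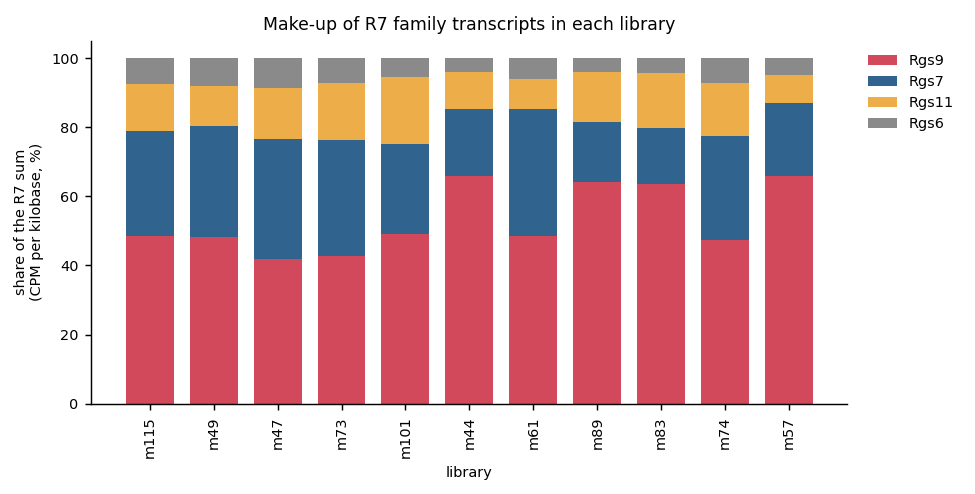
Share of the summed level per kilobase of Rgs6, Rgs7, Rgs9 and Rgs11 (vertical axis, percent) taken by each gene in each library (bars). Rgs9 holds 63.6 to 66.0% in 4 libraries and 42.0 to 49.2% in the other 7.

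Among the R4 genes, Rgs4, whose product acts on Gi and Gq alpha subunits, varied most. It was lowest in m47 with 177 CPM, had a median of 218 CPM and was highest in m61 with 455 CPM, ahead of m44 with 327 CPM. Its spread was 0.298 and fell to 0.208 without m61. Rgs2, whose product prefers Gq, was lowest in m74 (74.99 CPM), had a median of 89.8 CPM and was highest in m44 (116 CPM), and its spread was 0.145. Library m61 stood second for Rgs2 and sixth for Rgs9.

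Rgs8, known from striatal neurons and Purkinje cells, was lowest in m73 with 106 CPM, had a median of 139 CPM and was highest in m44 with 184 CPM. Rgs16 had the lowest level of the 10 genes, from 8.82 CPM in m61 to 15.1 CPM in m74, with m101 as the median library. Its highest library was thus the lowest for Rgs2 and Rgs7bp. The spread was 0.195 for Rgs8 and 0.153 for Rgs16. Their genes lie 40.0 kb apart on chromosome 1, Rgs8 at chr1:153653025-153700323 and Rgs16 at chr1:153740349-153745468, both on the plus strand. Each has an antisense gene with overlapping exons (Gm29529 for Rgs8, Gm28513 for Rgs16), so both are uncertain in the same way as Gnb5. The ratio of Rgs4 to Rgs16 per kilobase ran from 9.04 in m74 to 38.9 in m61.

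The R12 genes Rgs14 and Rgs10 both varied more than most genes. Rgs14 had 121 CPM in m44, 117 in m61, 117 in m83 and 114 in m57, then 78.0 in m89, and 51.3 to 69.6 CPM in the other 6 libraries. Its spread was 0.340, at percentile 81.2 of all genes. Rgs10 was lowest in m115 with 17.8 CPM, had a median of 25.4 CPM in m74 and was highest in m61 with 45.8 CPM, with a spread of 0.305. Library m89 was second for Rgs9 and ninth for Rgs10.

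**Figure D3:**
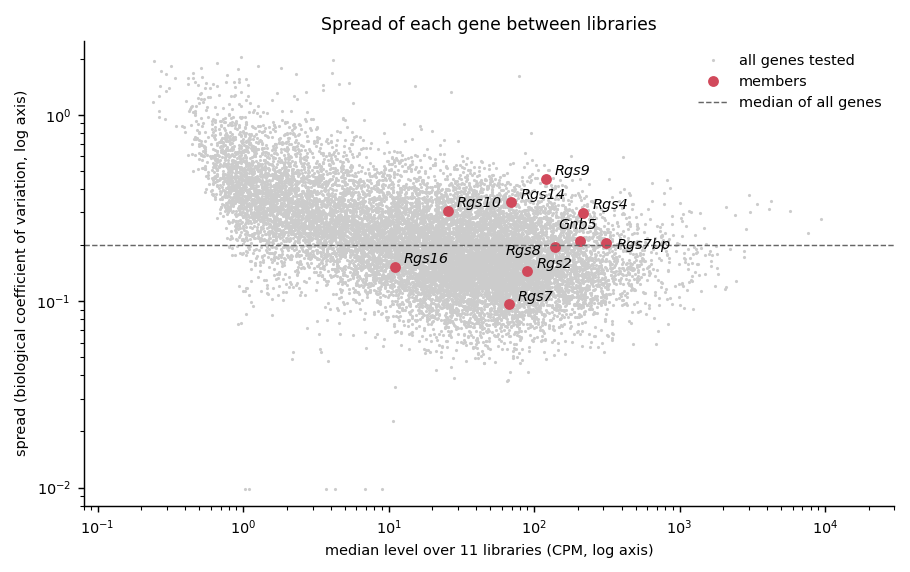
Spread between libraries (vertical axis, biological coefficient of variation, log axis) against the median level (horizontal axis, CPM, log axis) for 15373 genes (grey) and the 10 genes described (red), with the median spread of all genes, 0.201, as a dashed line. Rgs9 (0.452) lies highest and Rgs7 (0.0960) lowest of the 10.

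The median spread over all genes tested was 0.201, passed by 50% of genes by construction, and 6 of the 10 genes passed it. The 6 were Rgs4, Rgs7bp, Rgs9, Rgs10, Rgs14 and Gnb5. The median spread of the 10 genes was 0.207, close to that of all genes. With library totals left unscaled the count was 4. Set beside genes of like mean level, 7 of the 10 lay above the median spread, the 6 and Rgs8. Among such genes Rgs14 lay at percentile 95.5, Rgs4 at 94.0, Rgs10 at 87.2, Gnb5 at 72.8, Rgs7bp at 72.0 and Rgs8 at 68.2. Rgs2 lay at percentile 43.3, Rgs16 at 28.1 and Rgs7 at 13.3. By library, m44 was above the median for all 10 genes and held the highest value of Rgs2, Rgs8, Rgs9 and Rgs14. Library m61 held the highest value of Rgs4, Rgs7, Rgs10 and Gnb5, and m47 was above the median for none of the 10.

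Levels of Rgs9 and several other members were set beside a projection neuron score, the mean over the 17 markers of each library's log2 deviation from the gene's median. The score was 0.58 to 0.78 in m57, m89, m83, m61 and m44, and between −0.48 and −0.15 in the other 6 libraries. Since the libraries fell apart in this way, no correlation over all 11 is given. The score and the level of Rgs9 did not go together in every library, since m61 combined a score of 0.61 with 121 CPM of Rgs9 and the highest Gnb5 level, 296 CPM. Rgs14 had 78.0 CPM in m89 at a score of 0.58, against 114 CPM in m57 at the same score. Rgs7bp had 263 CPM in m83 at a score of 0.59 and 345 CPM in m73 at a score of −0.33. In the remaining libraries of high score Rgs7bp had 382.5 to 391.5 CPM. Rgs4, Rgs14 and Gnb5 were higher in each of the 5 libraries of high score than in any of the other 6. The same held for 256 of 15373 genes (1.67%), and the ranges of the other members overlapped. Within the 6 libraries of low score, Pearson's r between score and level ran from −0.40 (Rgs16) to 0.68 (Rgs2 and Rgs8). The smallest exact two-sided permutation p of the 10 genes was 0.121 (Rgs2). These values rest on few libraries: without m74 and m73, r was −0.71 for Rgs2, −0.43 for Rgs7bp and 0.42 for Rgs16, each of the other sign (as were Rgs7, Rgs14 and Gnb5), and 0.96 for Rgs8. With 6 libraries an exact p cannot go below 0.00139, so that at least 427 of 15356 genes would have to pass together at an adjusted p of 0.05, and the lack of calls there says nothing about the members. The level of Rgs9 also fell into separate groups of values, and within its 7 low libraries r with the other 9 genes ran from −0.01 (Rgs7bp) to 0.54 (Gnb5), where the exact two-sided permutation p for Gnb5 was 0.222. Without m47 and m73 that range ran from −0.68 (Rgs16, against 0.09 with them) to 0.75 (Rgs2), with −0.55 for Rgs8 and 0.70 for Rgs7bp, so it rests on those libraries, while Gnb5 stood at 0.56. How far the projection neuron content sets any of these levels was not tested.

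**Figure D4:**
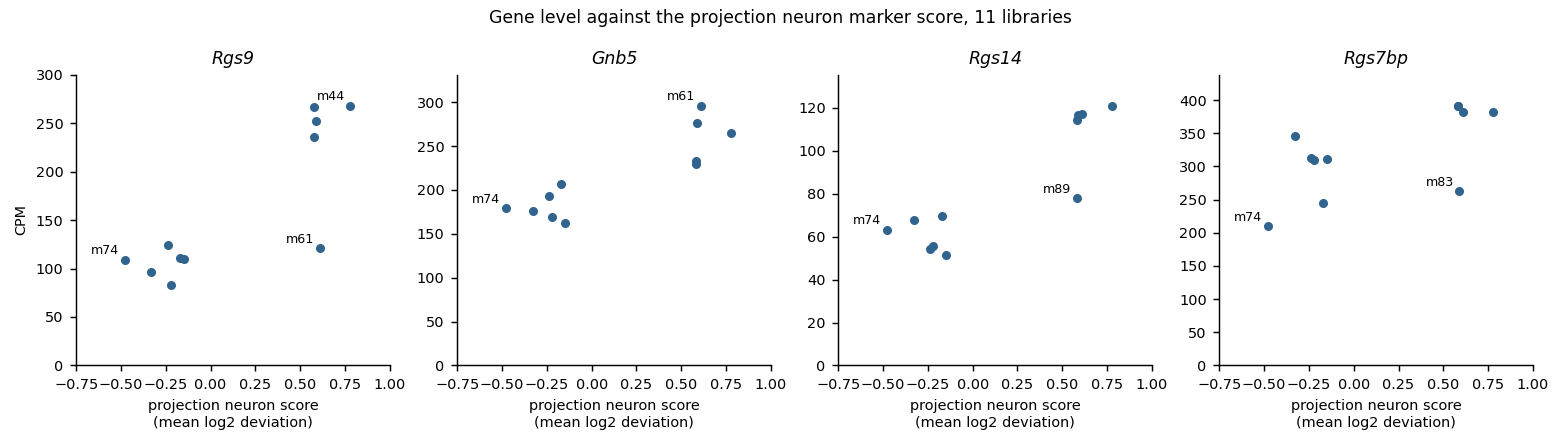
Level of Rgs9, Gnb5, Rgs14 and Rgs7bp (vertical axes, CPM) against the projection neuron score (horizontal axes, mean log2 deviation) in 11 libraries (points). Library m61 has a score of 0.61 with 121 CPM of Rgs9 and the highest Gnb5 level, 296 CPM.

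Rarb, the receptor gene of the series, was lowest in m74 with 49.8 CPM, had a median of 72.9 CPM and was highest in m44 with 101.2 CPM. Which members followed its level across libraries was examined by two-sided permutation of Pearson's r on log2 values, with Benjamini-Hochberg adjustment over 15372 genes. No member and no other gene passed, so the share of genes called was 0%, by Spearman's rho as well. An unadjusted permutation p under 0.05 was found for 1671 genes (10.9%) and 2 of 9 members with a value. These permutations can give no p below 1e-05, and over 15372 genes a gene with that p could not pass alone. The 0% is therefore not evidence that no gene followed Rarb, and the smallest adjusted permutation p for r was 0.0615. For r, the smallest permutation p of a member was 0.0032, above that limit. Rgs7bp had r = 0.80 and rho = 0.71 (permutation p = 0.0032 and 0.018, adjusted 0.243 and 0.491), and r = 0.62 without m74 and m44. Rgs8 had r = 0.79 and rho = 0.76 (permutation p = 0.00383 and 0.00847, adjusted 0.245 and 0.418), and r = 0.73 without the same libraries. Within the 6 libraries of low projection neuron score, r was 0.68 for Rgs7bp (exact permutation p = 0.156) and 0.48 for Rgs8 (exact permutation p = 0.358). For the other 7 members with a value, r lay between −0.45 (Rgs16) and 0.50 (Rgs2), and Rgs9, whose values fell apart, was given none.

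Libraries of this series differ in long against short transcripts, measured by setting the longest 10% of genes against the shortest 10% (difference of their median log2 deviations). This measure ran from −0.64 in m61 to 0.43 in m57. With it taken out of both variables, Rgs2 passed with Rarb (partial r = 0.93, adjusted permutation p = 0.0362, 37 genes or 0.241% called), and Gnb5 had a partial r of 0.88 with an adjusted permutation p of 0.0744. Without that step Rgs2 had r = 0.50 (adjusted permutation p = 0.552) and r = −0.03 without m74 and m44. The permutations of the partial r made no allowance for the measure taken out, so their p-values come out too small.

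**Figure D5:**
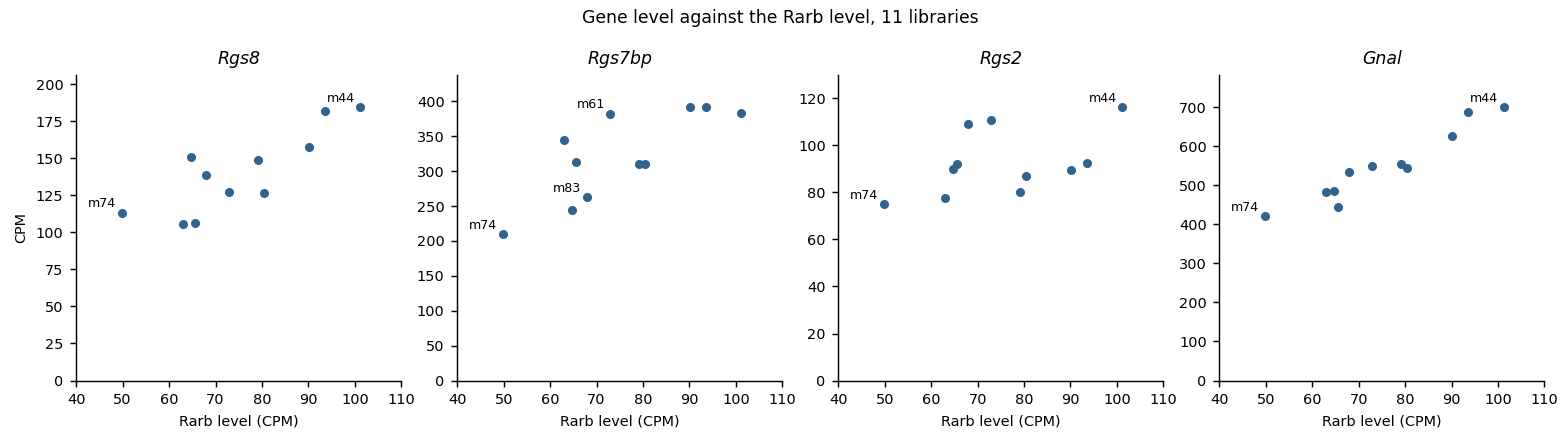
Level of Rgs8, Rgs7bp, Rgs2 and Gnal (vertical axes, CPM) against the Rarb level (horizontal axes, CPM) in 11 libraries (points). Library m74 has the lowest Rarb level, 49.8 CPM, and the lowest level of Rgs7bp, Rgs2 and Gnal. No gene passed the adjusted threshold, which a gene at the smallest p these permutations can give could not pass alone.

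The microglia score, the length measure and the cortical neuron score were related to the members in the same way, 36 pooled relations in all with the Rarb level included. With the microglia score, 1 of the 9 members with a value was called, Rgs10. In either direction 2425 of 15363 genes were called, and 6.85% of all genes were called with a positive r. At an unadjusted permutation p under 0.05 there were 5 of 9 members, all of positive r. Of all genes, 16.8% had such a p with a positive r and 35.0% in either direction. The members besides Rgs10 were Gnb5 (r = 0.69), Rgs7 (0.64), Rgs4 (0.63) and Rgs14 (0.61), and without m47 and m61 their r was 0.43, 0.15, 0.03 and 0.42 in that order. Rgs10 had r = 0.80 and rho = 0.76 (permutation p = 0.00272 and 0.0084, adjusted 0.0304 and 0.0896), and r = 0.72 without m47 and m61. Within the 6 libraries of low projection neuron score r was 0.75 for Rgs10 (exact permutation p = 0.0903), 0.76 for Gnb5 (exact permutation p = 0.0833) and 0.93 for Rgs16 (exact permutation p = 0.00556), which had r = 0.04 over all 11 libraries. With the length measure taken out, the partial r of Rgs10 was 0.55 (adjusted permutation p = 0.329). The Rgs10 call was also lost with unscaled library totals and without any 1 of m115, m73, m61 and m89, and the adjusted permutation p with each library left out in turn ran from 0.0268 to 0.144.

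With the length measure, Rgs10 was again the 1 member called, with r = −0.73 and rho = −0.61 (permutation p = 0.0131 and 0.0527, adjusted 0.0439 and 0.135). In either direction 4821 of 15373 genes were called, and 14.4% of all genes were called with a negative r. Rgs10 was also the 1 member of 9 at an unadjusted permutation p under 0.05, beside 42.4% of all genes in either direction. Without m61 and m57 r stayed at −0.73, and within the 6 libraries of low projection neuron score it was −0.76 (exact permutation p = 0.0958). Leaving out any 1 of m115, m49, m47, m73, m61, m89 and m83 ended this call, with adjusted permutation p from 0.0241 to 0.116 over all libraries left out in turn. With the cortical neuron score no member was called, and the share of all genes called was 0% by Pearson's r and by Spearman's rho, while 719 genes (4.68%) had an unadjusted permutation p under 0.05. The smallest adjusted permutation p of a member was 0.681, for Gnb5 with r = 0.44 and rho = 0.45.

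Other genes of the pathway were read from lists by role. Of 13 further RGS genes 9 passed the filter, and the spread of 4 exceeded the all-gene median. The most abundant per length was Rgs5, a pericyte gene, with a median of 21.2 CPM per kb. Spread was largest for Rgs13 (0.764), at 0.0603 to 2.43 CPM, and smallest for the R7 gene Rgs6 (0.0659), at 21.7 to 28.8 CPM. Rgs9bp, which encodes the retinal anchor of Rgs9, did not pass, with a median of 0.491 CPM against 313 CPM for Rgs7bp. Among the 7 partner genes 4 passed and 2 lay above the median spread. Gpr158, an orphan receptor that binds the Rgs7 complex, was the most abundant of them per length (15.8 CPM per kb), while Gpsm3 had the largest spread (0.297) and Gpsm2 the smallest (0.150).

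RGS proteins act on some G protein alpha subunits, and the list of alpha subunit genes was not limited to those. Of its 13 genes 12 passed the filter, and the spread of 1, Gnai3, exceeded the all-gene median, with a list median of 0.141. Gnas was the most abundant per length (114 CPM per kb), and Gnao1, the main Go subunit of neurons, had the smallest spread (0.0759), with 743 to 967 CPM. Gnal, the stimulatory subunit of striatal dopamine and adenosine receptors, was named after its values were seen: it had r = 0.95 and rho = 0.95 with Rarb (permutation p = 1e-05, the smallest these permutations can give, and 5e-05, adjusted p of 0.0615 for r), r = 0.93 without m74 and m44, and 0.92 within the 6 libraries (exact permutation p = 0.0153). Gnas ran the other way, with r = −0.72 and rho = −0.70 (permutation p = 0.0134 and 0.0199, adjusted p of 0.338 for r), r = −0.73 without m74 and m44, and −0.91 within the 6 libraries (exact permutation p = 0.0139). Gnas was also called with the length measure, the 1 alpha subunit gene of 12 called there with a negative r. Of all genes, 14.4% were called with that measure at a negative r. How Gnas and Gnal related to Rarb with the length measure taken out is not given here. The other 10 alpha subunit genes that passed the filter had an unadjusted permutation p above 0.05 with Rarb. In the other lists, 7 of 18 receptors and effectors had such a p under 0.05, all of positive r. So did 1 of positive and 2 of negative r among 9 further RGS genes, and 2 of each among 12 beta and gamma genes. Among 4 partner genes it was 1, of positive r, and among all genes 10.9% in either direction and 4.36% with a positive r. Of the genes of positive r, Drd1 and Adcy5 among the receptors and effectors and Gng7 among the gamma genes are markers of the projection neuron score. Of 14 beta and gamma genes 12 passed and 6 lay above the median spread. Gng7, the striatal gamma subunit, was the most abundant of them (184 CPM per kb), Gng13 varied most (0.322) and Gnb1 least (0.113).

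The receptors and effectors had the highest median spread of the 5 lists, 0.418. All 18 passed the filter, and the spread of 16 exceeded the all-gene median. The dopamine receptor gene Drd1 was lowest in m74 with 45.1 CPM and highest in m57 with 171 CPM (spread 0.428). Drd2 was lowest in m73 with 41.7 CPM and highest in m44 with 136 CPM (spread 0.426). Adcy5, the main adenylyl cyclase of striatum, was the most abundant per length (63.7 CPM per kb). The opioid receptor gene Oprm1 had the largest spread (0.574) at 0.332 to 2.57 CPM, and the adenosine receptor gene Adora1 the smallest (0.183). Drd1, Drd2, Adcy5, Adora2a and Gng7 are themselves among the markers of the projection neuron score.

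The genes whose log2 levels were most like each member over the 11 libraries were ranked by Pearson's r among 14206 genes, as a description of libraries that share differences in depth, transcript length and cell content. For Gnb5 they were Camk2b, a calmodulin kinase subunit, Rasl10b and Tpm1 (r = 0.97 each). For Rgs7bp they were Ubl3, Klhl13 and the potassium channel subunit gene Kcnab1 (r = 0.93 to 0.94). For Rgs7 they were Pdk3, Ppp2r2b and Gypc (r = 0.90 to 0.94), with r = 0.78 to 0.86 and ranks of 10, 42 and 6 without m61. For Rgs9 the 3 nearest were Tmem44, the formin gene Inf2 and the potassium channel gene Kcnh4, which are given by their levels since Rgs9 fell apart. Tmem44 ran from 41.6 CPM in m47 to 70.5 in m44, Inf2 from 125 CPM in m47 to 339 in m89, and Kcnh4 from 8.65 CPM in m73 to 33.5 in m44.

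For Rgs8 the nearest were the glutamate receptor gene Grm4, Ptprm and Smpd3 (r = 0.95 to 0.97), of which Grm4 was also first without m61. For Rgs2 they were Gpr151, Srgn and Fkbp1a (r = 0.92 to 0.93). For Rgs4 they were Nsdhl, Dusp14 and the potassium channel gene Kcnk2 (r = 0.93 to 0.94), all 3 highest in m61. Without m61 their r was 0.86 to 0.89 and they ranked 23, 75 and 33, so they were no longer the nearest. For Rgs16 they were Gtf3c5, Fgd3 and Cant1 (r = 0.93 to 0.94), of which Gtf3c5, Fgd3 and Cant1 were all lowest in m61 and ranked 10, 19 and 20 without it. For Rgs10 they were Crip2, Lypd1 and Timp4 (r = 0.95 to 0.96), and for Rgs14 Psd, Chst1 and the inositol kinase gene Itpka (r = 0.96 to 0.97). These 6 were highest in m61 as well, as Rgs10 was, whereas Rgs14 was highest in m44.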

How the data were processed

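In 11 libraries poly(A) RNA was measured by stranded RNA sequencing. Frozen sections of 300 µm were punched, and 200 ng of RNA and 12 PCR cycles went into each library, per the labels' protocols. The authors deposited raw read counts per gene without normalization. The submitters' processing notes list the genome build mm10, HTSeq 0.6.1, Bowtie2 2.1.0, TopHat2 2.0.14 and bcl2fastq 2.17.1.14. Whether counting used strand is not stated there. Of 52550 identifiers 52403 matched GENCODE M21, and the 147 others held 0.0112 to 0.0214% of a library's counts.

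CPM values were computed in edgeR 4.0.16 (R 4.3.3) with TMM scaling. A gene was tested if it reached 1 CPM in 3 libraries and its median count was 10 or more (15373 genes). The floor of 3 counts was worth 0.0619 to 0.133 CPM, for counting error only. Spread is edgeR's tagwise biological coefficient of variation in an intercept model, estimated gene by gene. Relations used log2(CPM + 0.5) and 100000 permutations, or all permutations within 6 or 7 libraries, with Benjamini-Hochberg adjustment over all genes and a threshold of 0.05. Where the largest gap exceeded 0.5 of the range, with 2 or more libraries on each side, no r is given. For a gene, a log2 range of 1 or more was also required. The relation and spread steps were tested on simulated data. Alternatives were DESeq2 1.42.0 size factors, unscaled totals, no filter, a pseudocount of 1 CPM, Spearman's rho, the length measure taken out, and each library left out. Further software was matplotlib 3.10.9, scipy 1.17.1, pandas 2.3.3 and numpy 2.4.6 under Python 3.11.15.

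The members, marker lists and pathway lists were chosen with earlier results of these data known. The genes named are all members, the 3 genes most like each by r, Rarb, Drd1 and Drd2, and from each pathway list the most abundant per length and those of largest and smallest spread. Rgs11, Gnal, Rgs9bp, Adora2a and the genes in separate clusters were named after their values were seen.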

Additional observations from a re-analysis of the deposited data

How the results depend on the processing

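The medians of all 10 genes moved by less than the standard deviation of the gene's CPM over libraries under DESeq2 size factors and unscaled totals. The spread of Rgs7 was 0.0635 with unscaled totals and 0.0568 without m61, against 0.0960, while the other 9 genes kept theirs within 1.5 times under these alternatives. The count of 6 genes above the median spread was 4 with unscaled totals and 4 with no filter, 6 with DESeq2 size factors, and 5 to 7 with each library left out. The count of members called with the microglia score was 1, and 0 with unscaled totals, Spearman's rho or the length measure taken out. With the length measure the count was 1, and 0 with Spearman's rho. Within the 6 libraries of low projection neuron score, an alternative chosen after seeing the data, both counts were 0, which says nothing about the calls: at 6 libraries the smallest exact p is 0.00139, so at least 427 genes would have to pass together with the microglia score and 428 with the length measure. The r of Rgs10 there was 0.75 against 0.80 over all libraries, and −0.76 against −0.73. With the Rarb level the count of members called was 0, and 1 with the length measure taken out, where the permutation p comes out too small. Leaving out each library in turn gave 0 to 1 calls with the microglia score and with the length measure, and 0 with the Rarb level and the cortical neuron score. The cause of the other changes was not tested. Alternatives for the relations with the projection neuron score and the Rgs9 level gave no value, because no correlation over all libraries was made for either. No paired analysis was possible because the labels put the libraries in no groups. The smallest library held 24840981 counts and the smallest count of a member was 199, in that library.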

Other observations

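The labels give each library a code besides its animal number, and what the code stands for is not given in the sources used here. The codes were set beside the values after the values had been seen, and no test was made. Libraries m57, m44, m61, m89 and m83 have the codes NSZR9, NSZR10, NSZR12, NSZR13 and NSZR14. Libraries m115, m49, m47, m74, m73 and m101 have NSZR1, NSZR2, NSZR3, NSZR5, NSZR6 and NSZR7. The 5 libraries of high projection neuron score are those of the higher codes. Genotype, batch and dissection cannot be told apart in this split, since the labels give none of them by library.

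The projection neuron score was 0.78 in m44, 0.61 in m61, 0.59 in m83, 0.58 in m89 and 0.58 in m57. It was −0.15 in m115, −0.17 in m49, −0.22 in m47, −0.24 in m101, −0.33 in m73 and −0.48 in m74. The largest gap took 0.582 of the range. Of the members, Rgs4, Rgs14 and Gnb5 were higher in every library of codes NSZR9 to NSZR14 than in any of codes NSZR1 to NSZR7, as were 256 of 15373 genes (1.67%), while 100 genes (0.65%) were lower in every one. Rgs4 had 228 to 455 CPM in the libraries of the higher codes and 177 to 218 CPM in the others. The ranges were 78.0 to 121 and 51.3 to 69.6 CPM for Rgs14, and 230.0 to 296 and 162 to 207 CPM for Gnb5, in the same order of codes. For Rgs9 they were 121 to 268 and 82.8 to 124 CPM, which overlapped through m61.

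Rgs9 was the 1 member whose levels fell into separate clusters, with a gap of 0.548 of the log2 range, a pattern met by 57 of 15373 genes (0.371%). It was the 1 gene of those 57 with m57, m83, m89 and m44 on one side and the other 7 libraries on the other. Adora2a, Gpr6, Ier5l, Pdyn and Scn4b were separated as the projection neuron score was, with m61 on the high side, and Adora2a and Pdyn are among that score's markers. In m61 Rgs9 had 121 CPM, while Adora2a had 170 CPM, within its range of 52.4 to 209 CPM.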
